A study of Mus musculus with 6 samples.

Results

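Mouse gene models onto which reads of ribosomal RNA (rRNA) are known to align were followed through an RNA immunoprecipitation sequencing (RIP-seq) experiment on YTHDF2. They are Gm26917 (ENSMUSG00000097971), Gm42418 (ENSMUSG00000098178), CT010467.1 (ENSMUSG00000106106) and Lars2 (ENSMUSG00000035202), 4 of the 54446 gene IDs counted in each library. The members were chosen by their Ensembl IDs with their share of reads and their difference between IP and Input already known, so those values are given here as a description and carry no test. All 4 were among the 15615 gene IDs that passed the filter on low counts.

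In the YTHDF2 immunoprecipitation (IP), 3 libraries hold RNA recovered with an anti-mouse YTHDF2 antibody. The other 3 hold Input RNA, from the 10% of lysate set aside before the antibody step. Both come from wild-type (WT) CD45+ CD4+ Foxp3-GFP+ regulatory T (Treg) cells, sorted from subcutaneous tumours of B16F10, a mouse melanoma line. All animals therefore carried tumours and the Foxp3-GFP reporter used for sorting, while their age, sex and number per library are not stated in the labels. A precipitation with a control antibody was not analysed here, so a difference between IP and Input does not by itself show binding by YTHDF2. Nothing states that replicates are separate animals or pools, and the spread between them may be technical. The Treg label was not checked against marker genes, because the files hold IDs with no symbols.

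rRNA is the structural and catalytic core of the ribosome and the most abundant RNA of a cell. Its long form is transcribed by RNA polymerase I in the nucleolus as a precursor, from which spacers are cut away to leave the RNAs of the small and large subunits. Total RNA libraries keep part of it, and copies or fragments of rRNA sequence inside other gene models can then receive its reads. YTHDF2 is a cytoplasmic reader of N6-methyladenosine (m6A) in mRNA that promotes the decay of the mRNAs it binds.

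What the annotation says of the members differs. RefSeq lists Gm42418 as a synonym of Rn18s-rs5, a pseudogene related to the rRNA of the small subunit, on chromosome 17 from 39846354 to 39848202 (1849 bases, GRCm38.p6, the patch release of the mm10 build that the submitters' processing notes name). The 91 bases of highest coordinate in this span also lie in AY036118, a long noncoding RNA gene at 39848112 to 39898385. Reads in such an overlap can be split between genes or set aside as ambiguous by the counting. Lars2, the nuclear gene for the leucyl-tRNA synthetase of mitochondria, lies on chromosome 9 from 123366927 to 123462675, a span that also holds the long noncoding RNA gene Gm46137, at 123381659 to 123390477. RefSeq's table matched these 2 of the 4 members by symbol or synonym. Gm26917 and CT010467.1 could be listed there under other names, and they are described here by their counts alone. The files give reads per gene and not along a gene, so the stretch of Lars2 or of any other member that received the reads is unknown here.

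Gene-assigned reads numbered 6847731 to 8465453 per IP library and 10029733 to 14704617 per Input library, which was 24.8% ± 0.576 of all reads in the IP files and 38.9% ± 1.22 in the Input files (SD, n = 3 each). Reads assigned to no annotated feature came to 71.7% ± 0.434 in IP files and 50.4% ± 1.08 in Input files. The strand setting is not stated, so such reads need not lie outside genes. Reads with more than 1 alignment came to 3.09% ± 0.242 in IP files and 9.44% ± 0.244 in Input files. Reads ambiguous between genes came to 0.409% ± 0.0120 in IP files and 1.24% ± 0.0210 in Input files. Gene-assigned reads, these categories and the few spike-in reads account for all reads in a file. Reads that did not align are therefore not part of these totals. Repeated sequence such as rRNA could fall in any of these categories, and the part they play in the members' counts was not tested. The 95% Clopper-Pearson interval of a member's share was widest for Lars2 in IP replicate 3, where it reached 11.1% below and 12.1% above the value. These intervals cover counting error only.

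Together the members took 10.1%, 8.18% and 8.90% of gene-assigned reads in IP replicates 1, 2 and 3, against 3.47%, 3.60% and 2.89% in Input replicates 1, 2 and 3. Their mean share came to 9.06% ± 0.964 for IP and 3.32% ± 0.374 for Input libraries (SD, n = 3 each), and the lowest IP library lay well above the highest Input library. The excess lay with Gm26917: the other 3 members together took 1.01% ± 0.0898 in the IP and 1.59% ± 0.249 in the Input. As a share of all reads in a file, reads assigned to no gene included, the 4 members made up 2.24% ± 0.232 in the IP and 1.29% ± 0.141 in the Input.

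The members did not move as one group. Gm26917 and CT010467.1 lay higher in all IP libraries than in all Input libraries, and Gm42418 and Lars2 lay lower, with TMM scaling, so that the groups overlapped for none of the 4. Over all tested genes, 36.5% had IP and Input libraries that did not overlap, in either direction. In edgeR's quasi-likelihood test over all genes, at an adjusted p under 0.05, 1 member (Gm26917) was called enriched, where 4.33% of all tested genes were, and 2 members (Gm42418 and Lars2) were called depleted, where 6.11% were. CT010467.1 did not pass. The members were selected on this same contrast, so nothing is read from these counts. The fold changes given for each member below come from that fit, with TMM scaling, and are IP over Input.

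**Figure D1:**
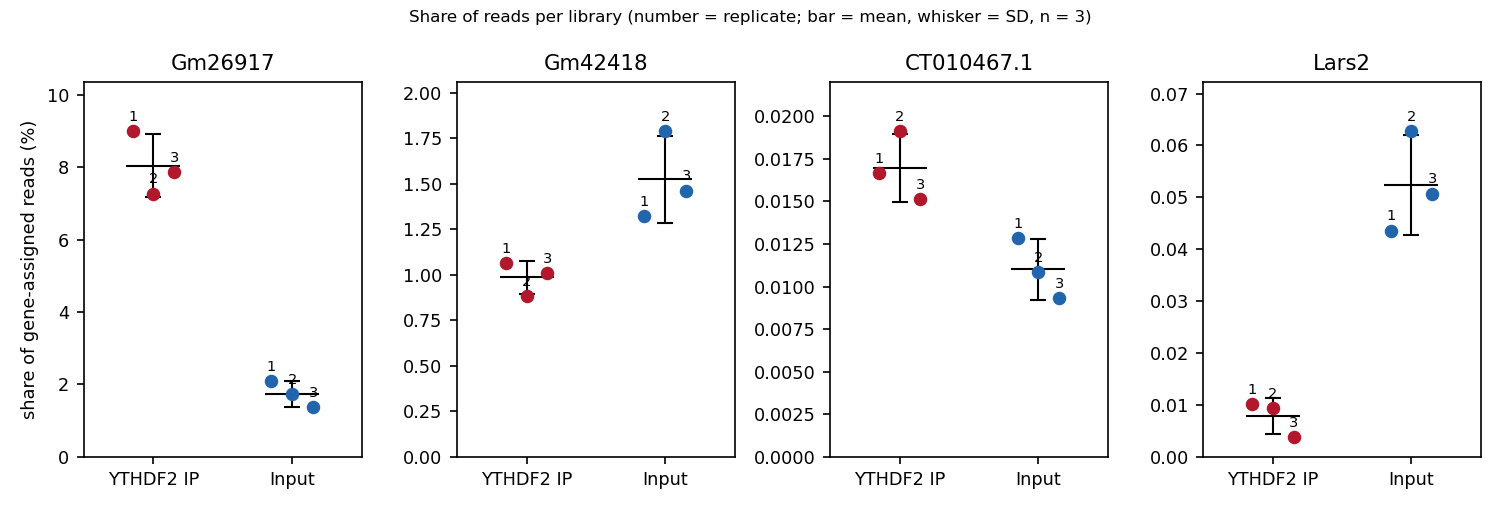
Share of gene-assigned reads (%, y axis, from 0 and with its own scale in each panel) taken by each of the 4 gene models in the 3 YTHDF2 IP libraries (left, red) and the 3 Input libraries (right, blue), with the replicate number above each point. Horizontal bars are means and whiskers SD. The IP points of Gm26917 lie between 7.27% and 9.00%, above all Input points, while those of Lars2 lie between 0.00379% and 0.0102%, below all Input points.

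Gm26917 held more reads than any other gene ID in each IP library. It took 9.00%, 7.27% and 7.87% of gene-assigned reads in IP replicates 1, 2 and 3, against 2.09%, 1.73% and 1.37% in Input replicates 1, 2 and 3. No IP value came near an Input value. Replicate 1 was the highest of each group. The next gene ID in rank took only 2.80% to 2.89% of the reads of an IP library, and in the Input libraries Gm26917 stood at rank 3, 5 and 6. In CPM, the read count per fixed number of gene-assigned reads after TMM scaling (counts per 1000000), Gm26917 had 77213 ± 9607 CPM in the IP and 18100 ± 3866 CPM in the Input (SD, n = 3 each). The log2 fold change was 2.09 ± 0.16 (SE), or 4.27-fold. A smaller value was found for 95.4% of all tested gene IDs and for 99.4% of the 2124 gene IDs with a mean of at least 100 CPM.

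Gm42418, the model that RefSeq ties to the rRNA of the small subunit, also carried many reads in every library, but fewer of them in the IP. It took 1.06%, 0.883% and 1.01% of gene-assigned reads in IP replicates 1, 2 and 3, against 1.32%, 1.79% and 1.46% in Input replicates 1, 2 and 3. The groups did not overlap, and the gap between the highest IP and the lowest Input library was smaller than the range of the Input libraries. By reads it ranked 3 in all IP libraries and 4 to 6 in the Input. The level was 9436 ± 885 CPM in the IP and 15894 ± 2532 CPM in the Input (SD, n = 3 each). The log2 fold change was -0.75 ± 0.13 (SE), which is 1.68-fold lower in the IP. A lower value was found for 32.0% of all tested gene IDs and for 19.8% of those of at least 100 CPM.

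CT010467.1 carried few reads. It had 1409, 1310 and 1174 reads in IP replicates 1, 2 and 3, against 1889, 1087 and 1124 in Input replicates 1, 2 and 3. Per gene-assigned read the IP libraries lay higher, with 0.0166%, 0.0191% and 0.0151% in the IP and 0.0128%, 0.0108% and 0.00932% in the Input, in the order of replicates 1, 2 and 3. Its ranks among the 54446 gene IDs were 1056 to 1415 in the IP and 1577 to 2261 in the Input, far below Gm26917 and Gm42418. Lars2, described below, had fewer reads than CT010467.1 in every IP library and more in every Input library. After TMM scaling it had 163 ± 25.1 CPM in the IP and 115 ± 19.2 CPM in the Input (SD, n = 3 each). The log2 fold change was 0.51 ± 0.21 (SE). It was -0.0245 when library sizes were taken from all reads of a file, so its direction depended on the scaling.

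Lars2 had the lowest IP share of the 4 and, as a fold change, the largest difference from the Input. It had 860, 641 and 294 reads in IP replicates 1, 2 and 3, against 6411, 6296 and 6115 in Input replicates 1, 2 and 3. Per gene-assigned read this is 0.0102%, 0.00936% and 0.00379% in IP libraries and 0.0436%, 0.0628% and 0.0507% in Input libraries, so every IP library lay below every Input library. IP replicate 3 was the lowest, and that library also had the fewest gene IDs with a read, 14200, against 18501 and 19991 in the other IP libraries. Lars2 ranked 2106 to 4529 in the IP and 139 to 260 in the Input. It had 75.4 ± 35.6 CPM in the IP and 546 ± 102 CPM in the Input (SD, n = 3 each), with a log2 fold change of -2.86 ± 0.37 (SE), which is 7.24-fold lower in the IP. The log2 fold change was -2.54 without IP replicate 3 and -3.15 without IP replicate 1. A lower value was found for 7.04% of all tested gene IDs and for 4.28% of those of at least 100 CPM on average over the 6 libraries.

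**Figure D2:**
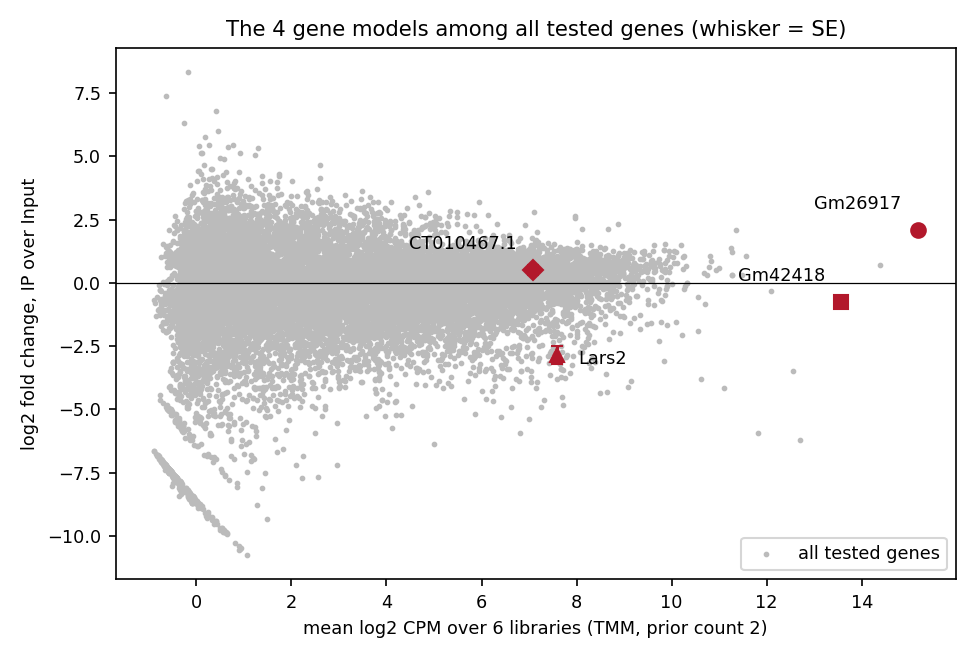
Log2 fold change, IP over Input (y axis), against mean log2 CPM over the 6 libraries (x axis, TMM scaling, prior count 2) for the 15615 tested gene IDs (grey) and the 4 gene models (red, whiskers are SE). Gm26917 lies at the right with a log2 fold change of 2.09, and Gm42418 beside it at -0.75. Lars2 lies further left at -2.86, at rank 506 of the tested gene IDs by mean CPM. CT010467.1, at 0.51 here and -0.0245 with library sizes from all reads, lies within the main cloud.

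Taken by libraries of equal replicate number, all members kept 1 direction under TMM scaling. The IP over Input ratio of CPM was 4.03, 3.94 and 5.05 for Gm26917 in replicates 1, 2 and 3. For Gm42418 it was 0.751, 0.464 and 0.610. For CT010467.1 it was 1.21, 1.66 and 1.43, and for Lars2 it was 0.218, 0.140 and 0.0659. The labels do not say that equal numbers share a lysate, so these are ratios of libraries and not of known pairs. Lars2 varied the most between numbers, and Gm26917 the least.

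The division of reads among the members differed between IP and Input. Gm26917 held 88.8% ± 0.384 of the 4 members' reads in the IP and 52.0% ± 7.19 in the Input (SD, n = 3 each). Gm42418 held 10.9% ± 0.418 in the IP and 46.1% ± 6.94 in the Input. Lars2 held 0.0426% to 0.114% in the IP and 1.26% to 1.75% in the Input, and CT010467.1 held at most 0.370% in any library. Input replicate 1 stood apart from the other Input libraries, with 60.3% of the members' reads on Gm26917, against 48.2% and 47.5% in Input replicates 2 and 3.

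**Figure D3:**
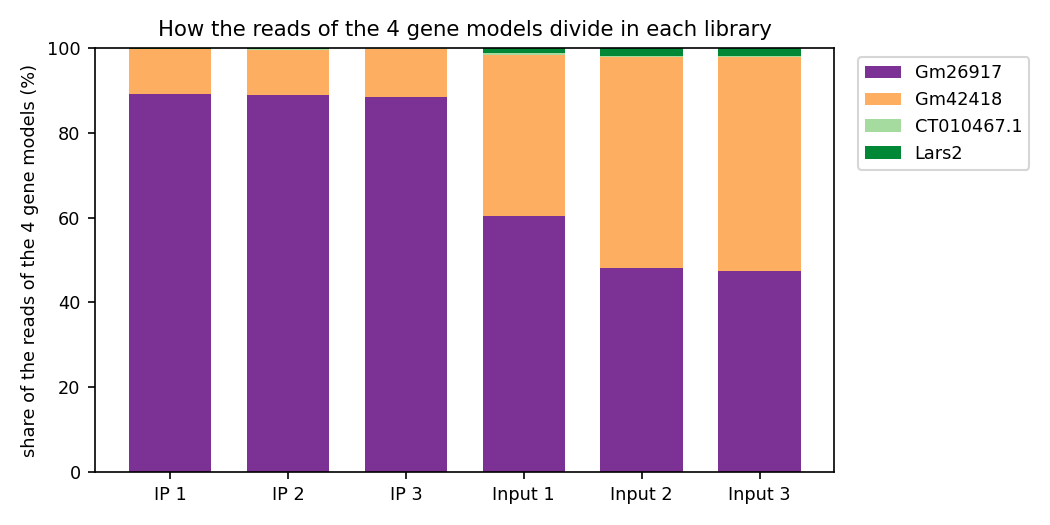
Share of the reads of the 4 gene models (%, y axis) that fell on each model, stacked to 100% for the 3 IP libraries (left) and the 3 Input libraries (right). Gm26917 takes 88.4% to 89.2% in the IP libraries and 47.5% to 60.3% in the Input libraries, and CT010467.1 and Lars2 are thin bands at the top.

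Ratios of read counts within a library do not depend on how the libraries are scaled. They compare reads and not levels of RNA, since the lengths that received reads are unknown. Gm26917 had 8.48, 8.23 and 7.80 reads for each read of Gm42418 in IP replicates 1, 2 and 3, against 1.58, 0.969 and 0.941 in Input replicates 1, 2 and 3. In the IP this ratio was nearly constant, and in the Input it varied 1.68-fold.

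Gm42418 with Lars2, and Gm26917 with CT010467.1, were nearly constant in the Input and not in the IP. The remaining pairs varied in both groups. Gm42418 to CT010467.1 varied 1.60-fold in the Input and 1.45-fold in the IP. CT010467.1 to Lars2 varied 1.71-fold and 2.44-fold, and Gm26917 to Lars2 1.77-fold and 2.68-fold, in the same order. The ratio of Gm42418 to Lars2 was 104, 94.3 and 266 in IP replicates 1, 2 and 3, against 30.3, 28.5 and 28.8 in Input replicates 1, 2 and 3. The ratio of Gm26917 to CT010467.1 was 541, 380 and 520 in IP replicates 1, 2 and 3, against 163, 160 and 147 in Input replicates 1, 2 and 3. Thus in the Input, replicate 1 had more of Gm26917 and CT010467.1 and less of Gm42418 and Lars2 than the other libraries, while in the IP Lars2 was low in replicate 3 beside Gm42418.

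How steady these ratios were was set against other genes, a comparison chosen after the ratios were seen. The SD of the log2 ratio of Lars2 to Gm42418 over the Input libraries was 0.05, where counting error alone gives about 0.02. Of 2120 other gene IDs of at least 100 CPM, 25 (1.18%) had a smaller SD to Gm42418, and the median was 0.25. For CT010467.1 to Gm26917 in the Input the SD was 0.08, where counting error gives 0.04, with 30 gene IDs (1.42%) below it and a median of 0.33. For Gm26917 to Gm42418 in the IP the SD was 0.06, far above the 0.0056 that counting error gives. Here 38 gene IDs (1.79%) had a smaller SD, and the median was 0.33. In the opposite group the same pairs had SDs of 0.83, 0.28 and 0.42. The SDs of 0.05, 0.08 and 0.06 were the smallest of all pairs of members in either group, and the next was 0.28. Since they were scored after being seen, their small percentages carry no test and nothing is read from them. With 3 libraries each SD is itself imprecise, and these values are a description.

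**Figure D4:**
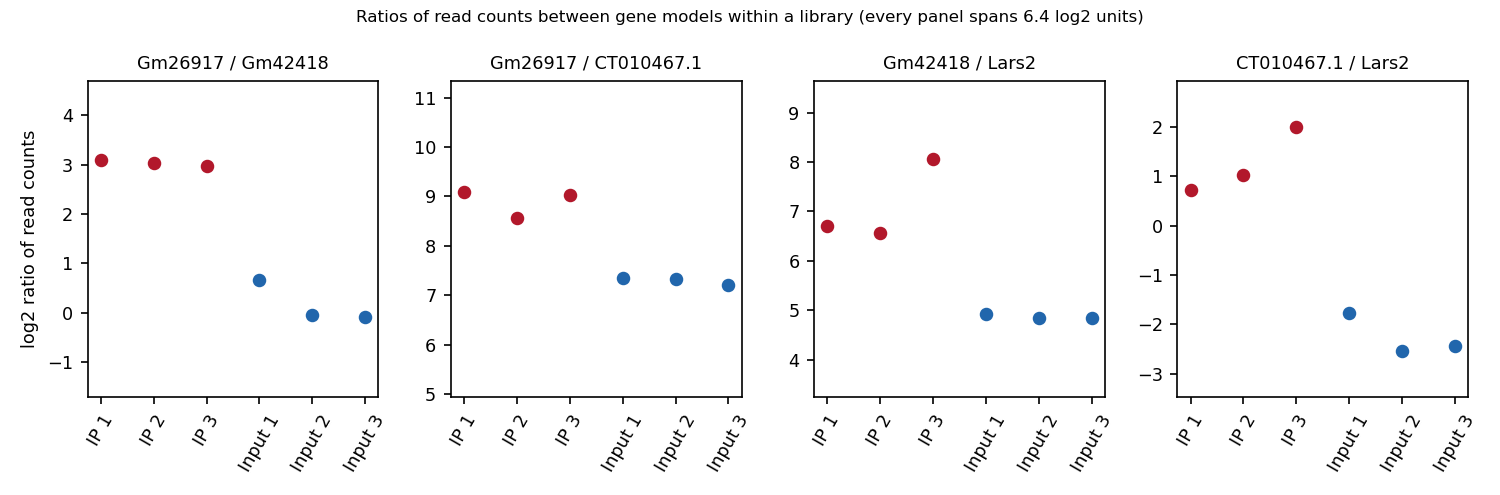
Log2 ratio of read counts between gene models (y axis) within each of the 3 IP libraries (red, left) and 3 Input libraries (blue, right), in panels that each span 6.4 log2 units. The ratio of Gm26917 to Gm42418 is level over the IP libraries at 7.80 to 8.48 before taking logs, and that of Gm42418 to Lars2 is level over the Input libraries at 28.5 to 30.3.

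Apart from Lars2, the members had a smaller relative spread between replicates in the IP than in the Input, a difference that was not tested. Gm26917 had a coefficient of variation of CPM of 12.4% in the IP and 21.4% in the Input. For Gm42418 the values were 9.38% in the IP and 15.9% in the Input. It was 15.4% and 16.7% for CT010467.1, in the same order. Lars2 had 47.2% in IP libraries and 18.6% in Input libraries. Over the gene IDs of at least 100 CPM the median was 20.2% for IP and 10.4% for Input libraries, so 3 members lay below the usual spread of the IP libraries and all 4 lay above that of the Input libraries.

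The profiles of the members over the 6 libraries were compared by the root mean square difference of log2 CPM, each gene centred on its own mean. This was 0.68 between Gm42418 and CT010467.1, the closest pair, and 2.60 between Gm26917 and Lars2, the farthest. Each member lay nearer to other genes of at least 100 CPM than to another member. The gene ID closest to Gm26917, ENSMUSG00000086503.4, differed by 0.13 and had 5538 ± 945 CPM in the IP and 1289 ± 322 CPM in the Input (SD, n = 3 each). The gene ID closest to Lars2, ENSMUSG00000018965.11, differed by 0.17 and had 34.8 ± 17.6 CPM in the IP and 238 ± 34.5 CPM in the Input (SD, n = 3 each). For Gm42418 and CT010467.1 the smallest differences were 0.08 each. With 2 groups, such likeness includes the step between IP and Input, which was not separated from the spread within a group.

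Because the members hold a larger part of the IP than of the Input, leaving them in a plain total lowers all other genes in the IP. Without them, 6287417 to 7611296 gene-assigned reads were left per IP library and 9669108 to 14194542 per Input library. When libraries were scaled by these totals in place of all gene-assigned reads, the median log2 fold change of the other tested genes was 0.09, against 0.000369 with the members kept, a shift of 0.09. With TMM factors, which trim extreme genes, it was -0.13 without the members and -0.12 with them. The counts of genes called enriched and depleted were then 667 and 968 of 15499 tested with the members left out of the scaling. With the members kept in it they were 676 and 954 of 15615 tested.

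**Figure D5:**
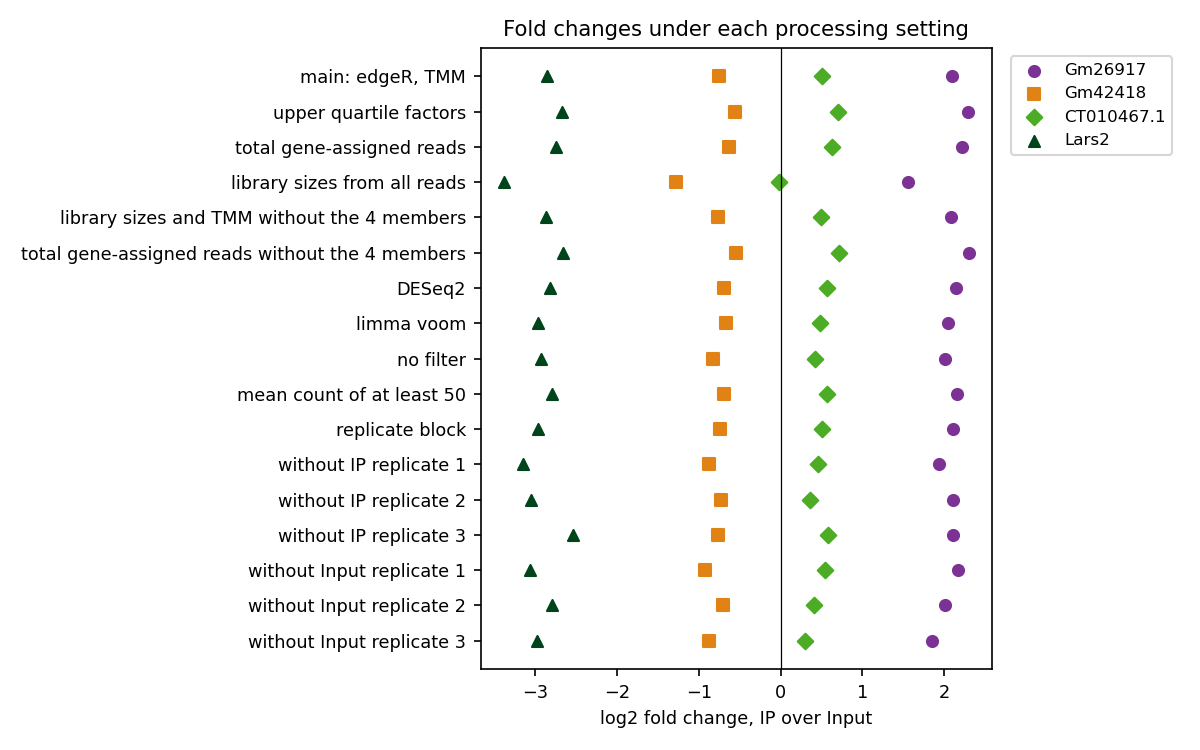
Log2 fold change, IP over Input (x axis), of the 4 gene models under each processing setting (y axis, the setting used in the text at the top). Gm26917 stays above 0 and Gm42418 and Lars2 below 0 in every setting drawn, while CT010467.1 is at -0.0245 with library sizes from all reads and above 0 in the others.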

How the data were processed

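Each deposited file holds the raw read counts of 1 library by Ensembl gene ID. The build was mm10 and the tools were HISAT2 2.1.0, Trimmomatic 0.39, DESeq2 and HTSeq, per the submitters' processing notes, which assign them no role or order. The annotation release, strand setting, handling of multiply aligned and duplicate reads, and any depletion of rRNA are not stated. The 92 spike-in IDs and the 5 summary categories stayed out of library sizes and tests.

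Counts were fitted over all genes with edgeR 4.0.16 in R 4.3.3 (filterByExpr, TMM, glmQLFit with robust dispersion, glmQLFTest, Benjamini-Hochberg adjustment), and SE were taken from the F statistics. The fit was also run on simulated counts in which as many genes were raised as lowered. That run was not built to model a gene ID with a large share of reads in the IP alone. No outcome of it is used here. Shares, ranks and ratios used the counts directly.

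The members and lists were chosen with earlier results of these data known. All 4 members are named; gene IDs most like a member were taken by the smallest root mean square difference among IDs of at least 100 CPM, and at most 2 IDs per direction are printed. Lists of aminoacyl-tRNA synthetases, rRNA processing genes and cell markers were not tested: 0 of 49997 rows of the RefSeq table hold an Ensembl ID. The members' names come with the definition of the set. Pairs of replicates within a group differed by at least 16.1 in chi-square per degree of freedom, which is more than counting error gives. This does not tell whether replicates came from separate lysates. Alternatives were other scalings, filters and tools (limma voom 3.58.1, DESeq2 1.42.0), a replicate block, and each library left out.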

Additional observations from a re-analysis of the deposited data

Results flagged for a closer look

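Reads in no annotated feature lie outside the gene counts. They made up 71.7% of the reads of an IP file on average, against 50.4% for an Input file. No IP file had less than 71.2% and no Input file more than 51.6%. Whether any of these reads come from rRNA was not tested.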

How the results depend on the processing

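Over 16 settings, the log2 fold change of Gm26917 ran from 1.56 to 2.30, that of Gm42418 from -1.28 to -0.54, that of CT010467.1 from -0.0245 to 0.71 and that of Lars2 from -3.39 to -2.54. Values beyond the spread between replicates came with library sizes from all reads: 1.56 for Gm26917, -1.28 for Gm42418 and -0.0245 for CT010467.1. That setting also counts reads assigned to no annotated feature, which are more frequent in the IP. Leaving out 1 library gave 1.85 to 2.17 for Gm26917, -0.93 to -0.70 for Gm42418, 0.30 to 0.58 for CT010467.1 and -3.15 to -2.54 for Lars2. A replicate block gave 2.11, -0.74, 0.51 and -2.97 in that order. Deviations of same-numbered libraries correlated at 0.0999, 0.026 and 0.024, which does not settle whether they share a lysate. The labels state no pairing, so equal numbers were not treated as pairs. Of all reads, the combined share was 2.24% for IP and 1.29% for Input libraries, against 9.06% and 3.32% of gene-assigned reads, since the denominator is larger. Leaving out 1 library gave 8.54% to 9.49% in the IP and 3.18% to 3.53% in the Input.

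Over all genes, 676 were called enriched and 954 depleted. These counts were 1081 and 801 with upper quartile factors, 940 and 876 with total gene-assigned reads, and 896 and 1737 with limma voom. A replicate block gave 833 and 1095. These settings tested the same 15615 genes as the main fit, and the others did not. Totals without the members gave 1106 and 796 of 15499 tested, all reads 155 and 1924 of 16455, and DESeq2 1382 and 2085 of 20847. No filter gave 729 and 1319 of 40072, and a mean count of at least 50 gave 901 and 960 of 10650. With a library left out the counts were 188 to 1000 and 563 to 1661, of 17025 to 19027 genes tested. The cause was not tested. Settings for gene lists were not run, because IDs have no symbols. Among the members, Lars2 and CT010467.1 had the largest relative counting error, but their spread between replicates was larger still.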
